A study of Homo sapiens with 6 samples.

Results

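The genes described here encode the aminoacyl-tRNA synthetases, the enzymes that load each tRNA with its amino acid, and the scaffold proteins AIMP1 and AIMP2. There were 37 genes, chosen by symbol: 16 cytosolic synthetases, 16 mitochondrial ones, 3 that serve both compartments or stand apart (GARS1, KARS1 and QARS1), and the 2 scaffolds. The arrays gave a probe set of its own for 19775 genes in all. Of the 37, 33 were tested: 15 cytosolic, 15 mitochondrial, GARS1, KARS1 and AIMP1, and all 33 passed the filter on low values. MARS1, QARS1 and TARS2 stood only on probe sets that also name a microRNA gene inside them, so their probe sets are described apart, and AIMP2 is not analysed here.

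Human cells keep separate synthetases for protein synthesis in the cytosol and inside mitochondria, nearly all encoded by different nuclear genes. Cytosolic synthetase genes carry a suffix of 1 and mitochondrial ones a suffix of 2, while cytosolic phenylalanyl-tRNA synthetase has an alpha subunit (FARSA) and a beta subunit (FARSB). Several cytosolic enzymes sit in a multi-synthetase complex built on AIMP1 and AIMP2. Many cytosolic synthetase genes belong to the amino acid response, a programme in which phosphorylation of the initiation factor eIF2 raises translation of the transcription factor ATF4, which then switches on genes for amino acid supply.

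All samples were HT-29, a human colon adenocarcinoma line, in 3 variants with 2 arrays each: wild type, BR100 and BR200. BR100 and BR200 are bortezomib-resistant variants, and bortezomib blocks the proteasome. Per the labels, HT-29 cells were grown in bortezomib raised stepwise from 20 to 300 nM for 7 months, and clones were then isolated by limiting dilution under 100 or 300 nM for 4 further months. That text stands on all samples, wild type included, and gives neither the cloning dose of BR200 nor whether drug was present at harvest. A resistant variant that is a single clone can differ from wild type for reasons of its own. Each variant had an array labelled from 100 ng of RNA with the 3' IVT Express kit and another from 3 ug with the One-Cycle kit. Separate cultures are not stated, so p-values measure only the spread between these arrays, which may be technical.

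Each array had 10063 to 10193 genes at or above 4 (log2). Across genes, which are not independent replicates, the Express and One-Cycle arrays of each variant had r from 0.983 to 0.985. Of 12 colon epithelial markers 10 were measured; EPCAM, KRT8, KRT18 and KRT19 did not pass the test in BR100 or BR200. The other 6 fell in both: LGALS4 by log2 changes of -5.99 and -5.56, CEACAM5 by -2.17 and -1.91, VIL1 by -1.85 and -1.75, CDH1 and KRT20 by less than 1, and MUC13 from 7.21 and 7.90 in wild type to under 4 on all resistant arrays. Of fibroblast, blood and endothelial markers, 3 of 8, 2 of 6 and 1 of 5 were above the filter. ACTA2, in smooth muscle and myofibroblasts, was higher in both variants (1.02 and 1.13), with wild type at 3.82 and 4.69, about the filter's floor of 4. TAGLN was lower in BR100, from 4.02 and 4.16 in wild type to 3.03 and 2.95, under that floor, so no size is given. COL1A1 was lower in BR100 (-0.33), and CD14, a monocyte marker, was higher in BR200 (1.05). The part of these markers in the results below was not tested. The 3' minus 5' difference of ACTB, which reflects RNA integrity and labelling, was 4.22 and 2.99 (log2) in wild type on Express and One-Cycle arrays. It was 3.03 and 1.86 in BR100 and 3.24 and 1.76 in BR200. Its part in the results below was not tested. Most genes differed between wild type and the resistant variants: of 10370 genes tested, 36.7% were called higher and 31.8% lower in BR100, and 35.4% higher and 31.2% lower in BR200. A gene was called at a Benjamini-Hochberg adjusted p under 0.05 from limma with the kit as a block. Both comparisons use the same wild type arrays, so they are not independent of each other.

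Most cytosolic synthetases fell and no mitochondrial one did. In BR100, 10 of 15 cytosolic synthetases fell, 3 rose and 2 were not called (66.7% lower, 20% higher), with a median log2 change of -0.99. Of 15 mitochondrial synthetases, 13 rose, none fell and 2 were not called (86.7% higher), with a median of 0.75. In BR200, 10 cytosolic synthetases fell and 4 rose (66.7% and 26.7%, median -0.96). There 9 mitochondrial ones rose, none fell and 6 were not called (60% higher, median 0.42). Of all genes 31.8% fell and 36.7% rose in BR100, and 31.2% and 35.4% in BR200. The median over all genes tested was 0.04 in each comparison. In bulk RNA, fewer cells of a type and less RNA per cell cannot be told apart.

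**Figure D1:**
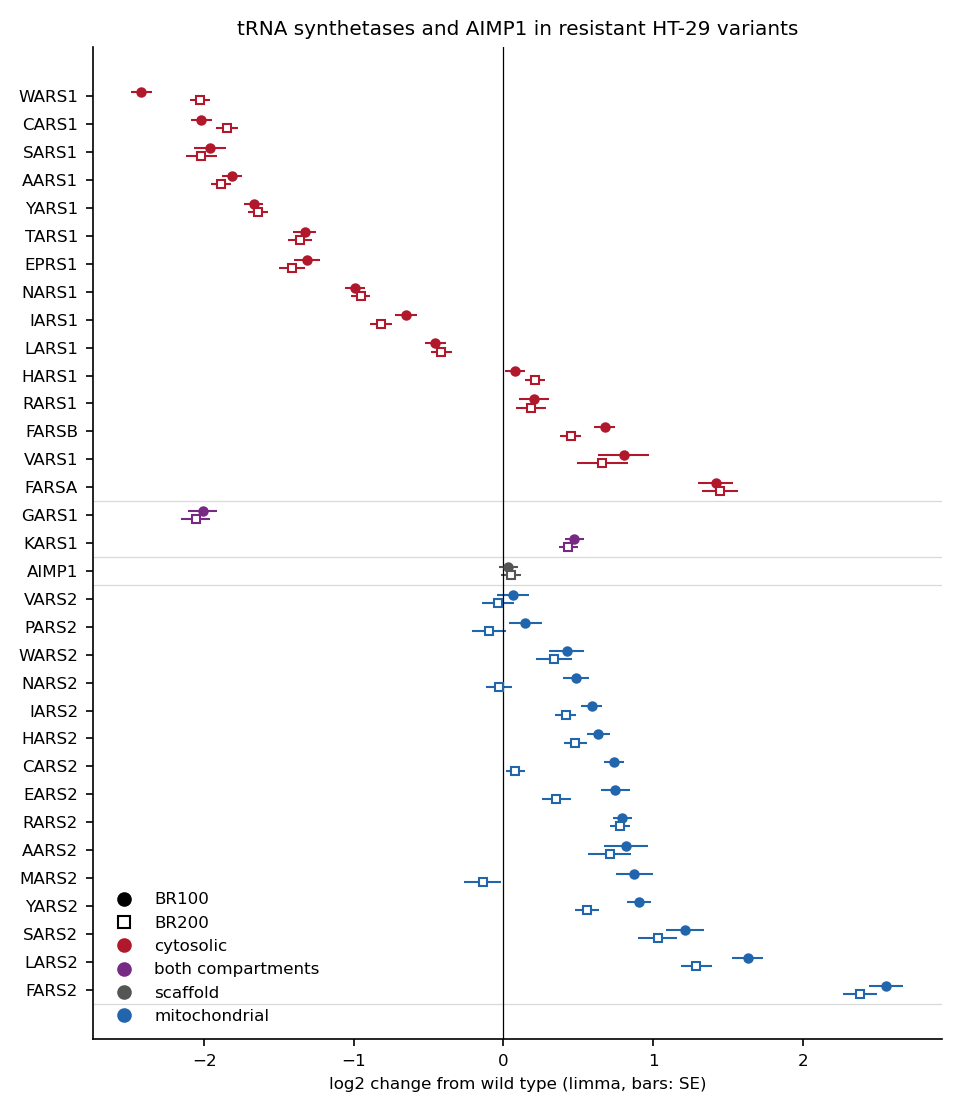
Log2 change from wild type (x axis) of the 33 tested genes (y axis) in BR100 (filled circles) and BR200 (open squares), with SE bars, coloured by compartment. Cytosolic genes run from -2.42 (WARS1) to 1.42 (FARSA) in BR100, and mitochondrial genes from 0.06 (VARS2) to 2.56 (FARS2).

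The cytosolic genes that fell most were those for tryptophan, cysteine, serine, alanine and tyrosine. WARS1, tryptophanyl-tRNA synthetase and also an interferon-gamma-inducible gene, had log2 values of 12.75 and 12.88 in wild type, in the order Express and One-Cycle used throughout. It had 10.32 and 10.47 in BR100 and 10.76 and 10.81 in BR200. All 4 resistant arrays lay below both wild type arrays, with a 5.35-fold fall in BR100 (log2 change -2.42, SE 0.0684, limma adjusted p = 9.77e-05) and a 4.08-fold fall in BR200 (adjusted p = 0.000157).

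CARS1, the cysteinyl enzyme, read 13.01 and 12.94 in wild type, 10.93 and 10.98 in BR100, and 11.16 and 11.09 in BR200. Its falls were 4.05-fold and 3.60-fold (log2 -2.02 and -1.85, SE 0.0712). SARS1, the seryl enzyme, which also charges the selenocysteine tRNA, read 12.81 and 12.82 in wild type against 10.70 and 11.01 in BR100 and 10.80 and 10.79 in BR200. Both genes were clearly separated from wild type on every resistant array. AARS1, the alanyl enzyme, read 12.03 and 12.33 in wild type, 10.24 and 10.49 in BR100, and 10.17 and 10.42 in BR200. YARS1, the tyrosyl enzyme, fell by 1.67 in BR100 and by 1.64 in BR200 (SE 0.0653), 3.18-fold and 3.12-fold. In CARS1, SARS1, AARS1 and YARS1 the BR100 and BR200 arrays of a kit differed by at most 0.23.

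GARS1, the glycyl enzyme whose single gene supplies both compartments, went with this group. It read 14.16 and 14.08 in wild type, 12.05 and 12.17 in BR100, and 12.15 and 11.98 in BR200. That is a 4.03-fold fall in BR100 (log2 -2.01, SE 0.0972, limma adjusted p = 0.000239) and a 4.16-fold fall in BR200.

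Smaller falls were seen for threonine, glutamate with proline, asparagine, isoleucine and leucine. TARS1 read 13.42 and 13.26 in wild type, 12.00 and 12.03 in BR100, and 12.02 and 11.95 in BR200. EPRS1, a fusion of the glutamyl and prolyl enzymes, fell by 1.31 in BR100 and by 1.41 in BR200 (SE 0.0887). NARS1, the asparaginyl enzyme, fell 1.99-fold and 1.94-fold, with wild type at 13.84 and 13.94 and the resistant arrays between 12.81 and 13.01. IARS1 fell by 0.65 and 0.82, and its wild type arrays (13.57 and 13.71) still lay above all 4 resistant ones. LARS1, the leucyl enzyme, was the smallest fall, by 0.45 in BR100 and by 0.42 in BR200 (SE 0.0706). Its arrays overlapped across kits, and its Express arrays read lower than its One-Cycle arrays by 0.57 in the fit (log2 -0.57): wild type read 11.94 on Express and 12.46 on One-Cycle, BR100 11.48 and 12.02, and BR200 11.47 and 12.10. Without the kit in the model LARS1 was not called (adjusted p = 0.324 and 0.373), and without the BR200 Express array its BR200 change of -0.36 was not called (adjusted p = 0.0606).

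A second set of cytosolic enzymes did not fall. FARSA rose 2.67-fold in BR100 and 2.73-fold in BR200, from 6.32 and 6.69 in wild type to 7.55 and 8.30 in BR100 and 7.75 and 8.16 in BR200 (log2 change 1.42 and 1.45, SE 0.119). Its partner subunit FARSB rose by 0.68 and 0.45, from 10.68 and 11.02 in wild type to 11.30 and 11.75 in BR100 and 11.10 and 11.50 in BR200. On both kits FARSB was higher in the resistant variants. Without the kit in the model FARSB was not called (adjusted p = 0.0837 and 0.209). When all probe sets of FARSB were averaged its changes were -0.01 (adjusted p = 0.911) and 0.15 (adjusted p = 0.0922). That average takes in a probe set that failed the filter, with values from 2.23 to 3.18, so it cannot tell background from a real difference. Its other measured probe set read -0.23 and 0.30, with array values between 4.94 and 5.86.

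VARS1, the valyl enzyme, rose from 8.69 and 8.40 in wild type to 9.18 and 9.52 in BR100 and 9.11 and 9.30 in BR200 (0.80 and 0.66, SE 0.171). Averaged over its probe sets VARS1 was at 0.998 and 0.900, not called (adjusted p = 0.063 and 0.085). Its BR100 call was lost without the BR100 One-Cycle array (0.61, adjusted p = 0.0831). Its BR200 call was lost without the BR200 Express array (0.74), the BR200 One-Cycle array (0.58) or the wild type One-Cycle array (0.38). KARS1, the lysyl enzyme, which supplies both compartments through alternative splicing, rose by 0.47 and 0.43 (SE 0.0651), with wild type at 13.74 and 13.80 and the resistant arrays from 14.15 to 14.30. HARS1, the histidyl enzyme, changed by 0.08 in BR100 (adjusted p = 0.341) and by 0.21 in BR200 (adjusted p = 0.0436). The HARS1 call in BR200 was lost whichever array was left out (0.19 to 0.24), and without the kit in the model (adjusted p = 0.26). RARS1, the arginyl enzyme, was at 0.20 and 0.18, not called (adjusted p = 0.134 and 0.17). Without the wild type One-Cycle array RARS1 was at 0.34 in BR100 (adjusted p = 0.0481).

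**Figure D2:**
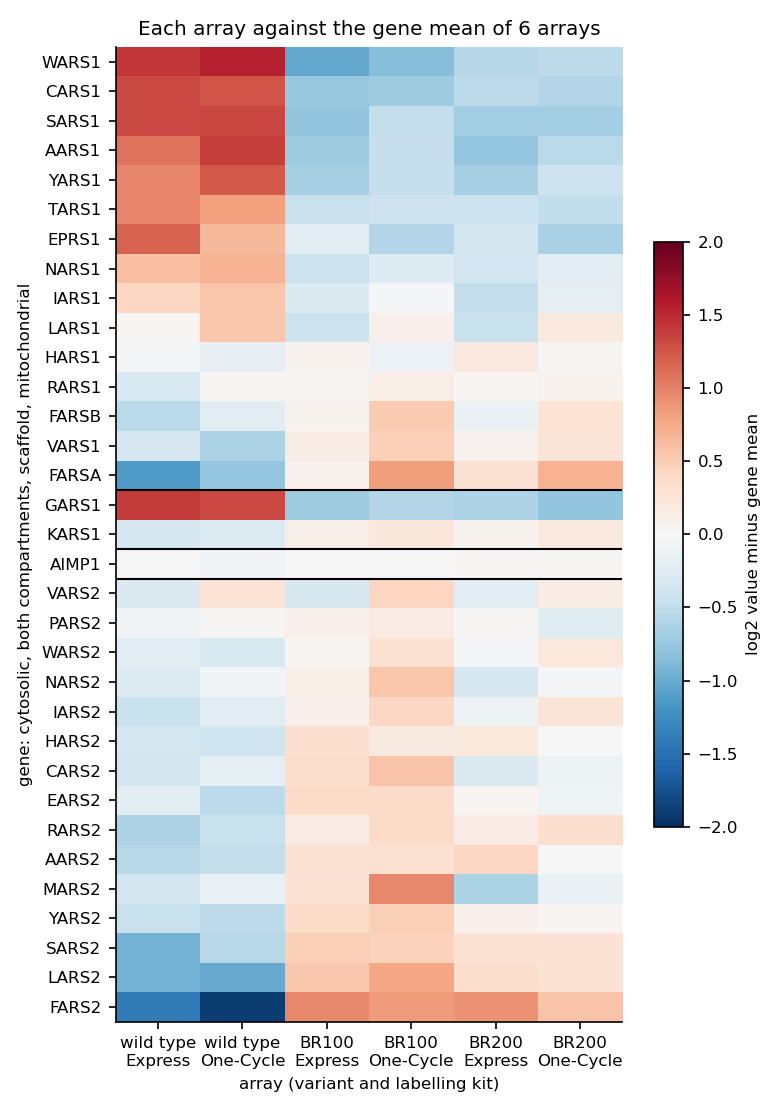
Colour gives each array's log2 value minus that gene's mean over the 6 arrays (scale from -2 to 2), with genes in rows and variants by labelling kit in columns. In the rows WARS1 to IARS1 and in GARS1 the wild type columns are red (above the mean), and in most mitochondrial rows at the bottom, VARS2 and PARS2 apart, they are blue (below it).

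Among the mitochondrial enzymes the largest rise was in FARS2, the mitochondrial phenylalanyl enzyme. It read 7.26 and 6.76 in wild type, 9.62 and 9.51 in BR100, and 9.55 and 9.23 in BR200. That is a 5.89-fold rise in BR100 (log2 change 2.56, SE 0.114, limma adjusted p = 0.0002) and a 5.21-fold rise in BR200 (2.38, adjusted p = 0.000259). LARS2, the mitochondrial leucyl enzyme, rose from 8.33 and 8.27 to 9.82 and 10.05 in BR100 and to 9.62 and 9.56 in BR200, 3.10-fold and 2.44-fold. SARS2, the seryl enzyme, rose from 5.42 and 5.81 to 6.84 and 6.82 in BR100 and to 6.65 on both BR200 arrays. For these 3 genes every resistant array exceeded both wild type arrays.

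RARS2, the arginyl enzyme, rose by 0.80 and 0.78 (SE 0.0648), with 9.50 and 9.67 in wild type and 10.27 to 10.49 on the resistant arrays. YARS2, the tyrosyl enzyme, rose by 0.91 and 0.56, AARS2, the alanyl enzyme, by 0.82 and 0.71, HARS2 by 0.63 and 0.48, and IARS2 by 0.59 and 0.42. EARS2, the mitochondrial glutamyl enzyme, which also charges the glutamine tRNA before its conversion, rose by 0.75 and 0.35. All of these had both wild type arrays below all 4 resistant ones. WARS2 rose by 0.42 in BR100 (adjusted p = 0.0326) and was at 0.34 in BR200 (adjusted p = 0.0631).

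Without the kit in the model the calls of IARS2 in both variants (adjusted p = 0.0678 and 0.159), of WARS2 in BR100 (0.0876) and of EARS2 in BR200 (0.114) were lost. Single arrays decided several of the calls. In BR100 the AARS2 call was lost without the BR100 One-Cycle array (0.73, adjusted p = 0.0598) or the wild type Express array (0.67, adjusted p = 0.0643). The WARS2 call in BR100 was lost without any array but the wild type Express one (0.24 to 0.52), and in BR200 WARS2 passed without the wild type Express array (0.52, adjusted p = 0.0193). In BR200 the EARS2 call was lost without either BR200 array (0.36 and 0.35) or the wild type One-Cycle array (0.23). That of IARS2 was lost without the BR200 One-Cycle array (0.37, adjusted p = 0.0635) and that of AARS2 without the wild type Express array (0.56, adjusted p = 0.0917).

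CARS2, MARS2 and NARS2, the mitochondrial cysteinyl, methionyl and asparaginyl enzymes, rose in BR100 and were not called in BR200. CARS2 read 8.59 and 8.78 in wild type, 9.32 and 9.53 in BR100, and 8.66 and 8.86 in BR200. MARS2 read 6.48 and 6.71 in wild type, 7.14 and 7.81 in BR100, and 6.21 and 6.71 in BR200. NARS2 read 9.52 and 9.72 in wild type, 9.89 and 10.33 in BR100, and 9.46 and 9.73 in BR200. Within each kit the BR100 array of these 3 genes was the highest, while BR200 lay near wild type. The NARS2 rise of 0.49 in BR100 was not called without the BR100 One-Cycle array (0.38, adjusted p = 0.053) or the wild type One-Cycle array (0.41, adjusted p = 0.0526). Without the kit in the model neither NARS2 (adjusted p = 0.121) nor MARS2 (adjusted p = 0.0724) was called in BR100. PARS2, the prolyl enzyme, was at 0.15 and -0.10, and VARS2, the valyl enzyme, at 0.06 and -0.04, none of them called.

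Counted by arrays, both wild type arrays lay above all 4 resistant arrays for 9 of 15 cytosolic genes and none of 15 mitochondrial ones. This order held for 28.6% of all genes tested. Both wild type arrays lay below all resistant arrays for 3 cytosolic and 10 mitochondrial genes, against 32.5% of all genes. Within the Express kit the median BR100 minus wild type difference was -1.03 for cytosolic and 0.69 for mitochondrial genes, and within the One-Cycle kit it was -0.95 and 0.78.

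Setting the enzymes for a given amino acid side by side gave 14 pairs with both genes tested, counting FARSA and FARSB each with FARS2. The change of the mitochondrial gene exceeded that of the cytosolic gene in 13 of 14 pairs in BR100 and in the same number in BR200. The difference between the changes had a median of 1.97 in BR100 and 1.74 in BR200 (log2), and no p is given for a score over these genes. It was widest for serine, at 3.17 in BR100, where SARS1 fell by 1.96 and SARS2 rose by 1.21. Valine was the exception, with VARS1 up and VARS2 near 0, a difference of -0.74 in BR100 and of -0.70 in BR200. Phenylalanine, histidine and arginine had neither gene of the pair lower in either variant.

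**Figure D3:**
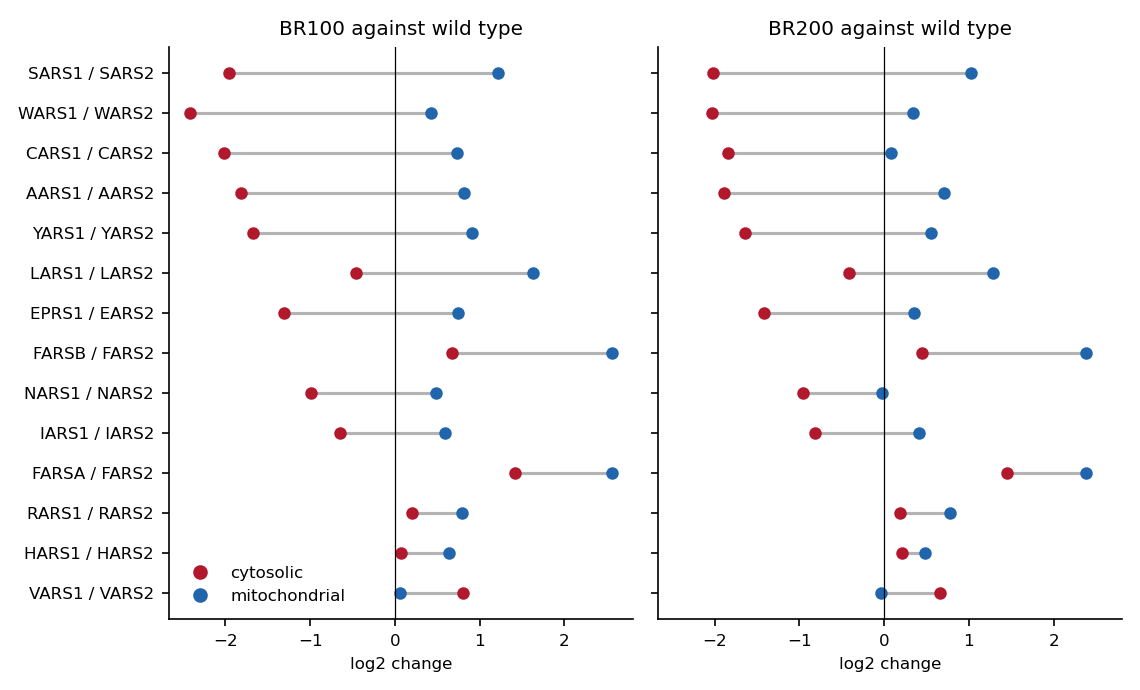
Log2 change from wild type (x axis) of the cytosolic (red) and mitochondrial (blue) gene for each amino acid (y axis, sorted by the gap in BR100), for BR100 at the left and BR200 at the right. The blue point lies to the right of the red one in 13 of 14 pairs in both panels, and the exception is VARS1 with VARS2.

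The probe sets that name a member together with a microRNA gene were tested among 22375 probe sets, and their signal cannot be assigned to a single gene. The 3 annotated to MIR6758 and MARS1, the cytosolic methionyl enzyme, were called lower in both variants. One read 6.55 and 7.36 in wild type and under 4, the filter's floor, on all 4 resistant arrays, so no size is given for it. The others were at -1.31 and -1.15 in BR100 and at -1.30 and -1.21 in BR200. The brighter of them read 13.32 and 12.93 in wild type against 12.06 and 11.89 in BR100 and 12.03 and 11.79 in BR200. The probe set annotated to MIR6890 and QARS1, the glutaminyl enzyme, was higher, at 10.51 and 10.61 in wild type, 11.51 and 11.79 in BR100, and 11.70 and 11.88 in BR200 (limma adjusted p = 0.00142 and 0.00133 over all probe sets). The probe set annotated to MIR6878 and TARS2, the mitochondrial threonyl enzyme, was higher by 0.97 and 0.88 (adjusted p = 0.00849 and 0.0121).

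Most genes with several probe sets gave a single direction. Of 17 members with more than 1 measured probe set, 15 had a single sign in BR100 and 16 in BR200. Tested singly, 18 of 28 cytosolic probe sets were called lower and 4 higher in both comparisons, and 19 of 22 mitochondrial ones were higher in BR100 and 13 in BR200, with none lower. Among all probe sets tested, 30.2% were higher and 31.2% lower in BR100, and 28.3% higher and 29.1% lower in BR200. SARS1 had the widest spread, with a second probe set at -3.60 in BR100 against -1.96 for the brighter one. AIMP1, the scaffold protein that also gives rise to the cytokine EMAPII, gave differing probe sets: its brightest probe set was at 0.03 and 0.05 (adjusted p = 0.68 and 0.521), and its others fell by 0.52 and 1.12 in BR100 and by 0.43 and 0.79 in BR200.

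**Figure D4:**
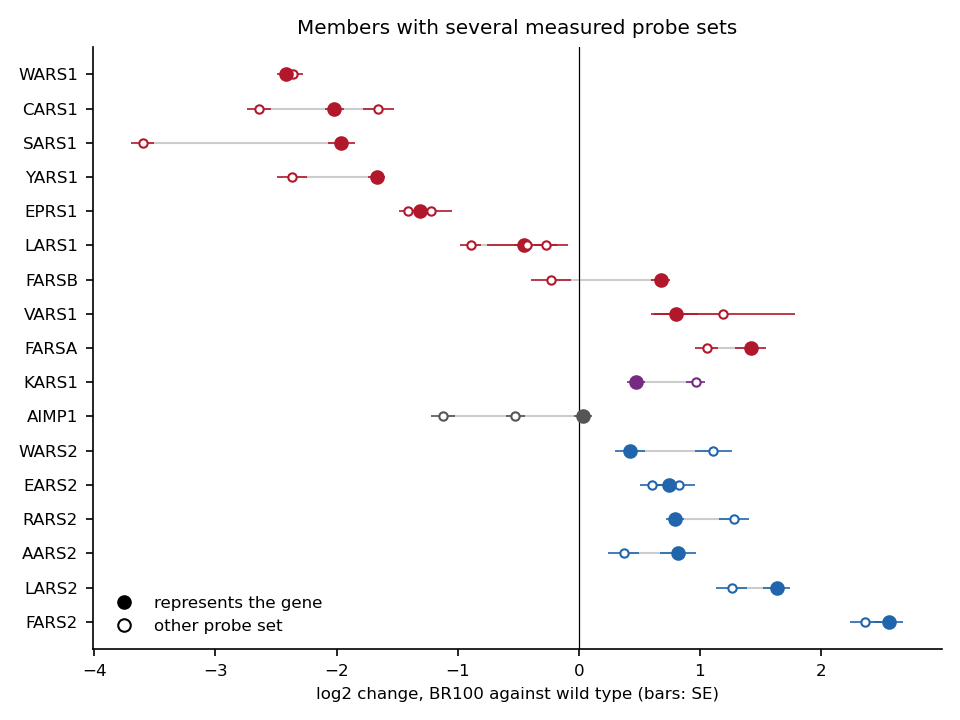
Log2 change in BR100 against wild type (x axis, SE bars) for each measured probe set of the 17 members (y axis) that have more than 1. Filled points represent the gene elsewhere, open points are its other probe sets, and FARSB and AIMP1 are the members with points on both sides of 0.

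Few of these genes, as of all genes, were called between the resistant variants. Between BR200 and BR100, 1 of 33 members was higher and 3 were lower in BR200 (3.03% and 9.09%), against 6.39% and 4.23% of all genes. WARS1 was higher in BR200 by 0.39 (SE 0.0684, adjusted p = 0.0432). MARS2, CARS2 and NARS2 were lower, by 1.01, 0.66 and 0.52 (SE 0.124, 0.064 and 0.0874, adjusted p = 0.0232, 0.0163 and 0.0408). All 15 mitochondrial synthetases had a value below 0 (median -0.18, from -1.01 to -0.02), as did 52.8% of all genes, and in 12 of 15 both kits gave BR200 below BR100. The cytosolic median was -0.02. Leaving out 1 array gave 0.35 to 0.43 for WARS1, -1.17 to -0.86 for MARS2, -0.67 to -0.65 for CARS2 and -0.62 to -0.41 for NARS2. None of these was called, but over all genes no more than 61 were called in such fits and 0 without a BR100 or BR200 array, so those lost calls say nothing about these genes. Without the kit in the model the adjusted p was 0.268 for WARS1 and MARS2, 0.164 for CARS2 and 0.416 for NARS2.

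Both structural classes and the complex held members that fell and members that rose. Of 8 tested class I enzymes, which share a Rossmann-type catalytic fold, 6 fell and 1 rose in each variant (75% and 12.5%). EPRS1, the fusion of the glutamyl and prolyl enzymes, was counted in class I only, so its fall is not among those of class II. Of 9 class II enzymes, with the other catalytic fold and counting GARS1 and KARS1, 5 fell in each variant (55.6%). In BR100 3 class II enzymes rose and in BR200 4 (33.3% and 44.4%). Of all genes 31.8% fell and 36.7% rose in BR100, and 31.2% and 35.4% in BR200. The class II share that rose in BR100 was near that of all genes. Among 6 tested components of the multi-synthetase complex, EPRS1, IARS1 and LARS1 fell, KARS1 rose, and RARS1 and AIMP1 were not called. In each variant 50% of these components were lower and 16.7% higher. Of 12 synthetase genes known as amino acid response genes, all 11 tested fell in both variants, with a median of -1.67 in BR100 and -1.64 in BR200. Of 6 other tested cytosolic or shared enzymes, 4 rose in BR100 and 5 in BR200, and none fell. The list was chosen with earlier results of these data known, so its direction is not independent evidence.

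The promoters of these genes were compared for the C/EBP-ATF response element, to which ATF4 binds with a C/EBP partner. Its core was searched as TGATGNAA, with N any base, on both strands of the RefSeq windows of GRCh38.p14 from 250 bases before to 50 after each start site. Windows were given for 32 of the 37 genes, and genes with several start sites have several windows. The word was in 7 of 10 genes of the amino acid response list, in 0 of 6 other cytosolic or shared enzymes, in 1 of 14 mitochondrial enzymes and in neither scaffold gene. It was in 4.46% of 27305 genes with a window, and in 3.62% of all 35116 windows. LARS1 and YARS1, also on that list, had no window. The lists were chosen with earlier results of these data known, so the contrast between them is not independent evidence. The stretches that hold it are printed because their genes, YARS2 apart, are on the amino acid response list. Each runs 5′ to 3′ on the gene's strand, and capitals mark the match, which reads TTGCATCA or TTTCATCA where the word lies on the opposite strand.
AARS1, chr16:70289642-70289736, minus strand: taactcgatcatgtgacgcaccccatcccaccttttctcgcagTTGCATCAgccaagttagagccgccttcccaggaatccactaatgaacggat
CARS1, chr11:3057399-3057493, minus strand: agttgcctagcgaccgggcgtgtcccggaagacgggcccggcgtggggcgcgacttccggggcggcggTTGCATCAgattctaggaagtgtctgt
GARS1, chr7:30594808-30594902, plus strand: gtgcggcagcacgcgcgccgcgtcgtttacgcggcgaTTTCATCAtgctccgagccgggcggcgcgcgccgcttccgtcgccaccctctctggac
IARS1, chr9:92293673-92293767, minus strand: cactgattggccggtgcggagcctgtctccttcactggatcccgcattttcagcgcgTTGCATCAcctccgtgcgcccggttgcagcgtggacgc
MARS1, chr12:57487998-57488092, plus strand: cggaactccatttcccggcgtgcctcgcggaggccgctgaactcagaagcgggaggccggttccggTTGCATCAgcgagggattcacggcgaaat
NARS1, chr18:57621812-57621906, minus strand: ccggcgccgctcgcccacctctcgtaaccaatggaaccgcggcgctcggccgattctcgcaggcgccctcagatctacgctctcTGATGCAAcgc
TARS1, chr5:33440895-33440989, plus strand: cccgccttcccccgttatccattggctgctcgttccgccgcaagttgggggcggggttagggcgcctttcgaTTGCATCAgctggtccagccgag
YARS2, chr12:32756043-32756137, minus strand: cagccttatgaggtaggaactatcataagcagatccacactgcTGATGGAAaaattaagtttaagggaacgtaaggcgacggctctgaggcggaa

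In 6 of the 7 genes that belong to the list the match lay near the start site, from position -33 (GARS1) to position 22 (NARS1), while in AARS1 it began at position -187. In YARS2, which rose, the match began at position -197. EPRS1, SARS1 and WARS1 fell and held no match in these windows, which says only that these letters are not there.

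HARS1 and HARS2 lie head to head on chromosome 5, so their promoters share the same bases. The 84 bases between their start sites, chr5:140691371-140691454 on the plus strand of GRCh38.p14, are shown because the genes on either side gave different changes (HARS1 0.08 and HARS2 0.63 in BR100, 0.21 and 0.48 in BR200).
HARS1 to HARS2: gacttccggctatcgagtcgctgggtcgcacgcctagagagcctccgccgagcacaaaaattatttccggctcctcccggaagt
They hold no TGATGNAA match. The difference between the changes of HARS1 and HARS2 was not tested.

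Nearly all other genes of the amino acid response fell too. Of 28 tested genes of that list, 26 fell in each variant, with 1 higher in BR100, and medians of -2.88 and -2.50. ATF4 itself fell by 1.26 in BR100 and by 0.91 in BR200 (SE 0.0689), from 13.80 and 13.84 in wild type to 12.57 and 12.56 in BR100 and 12.95 and 12.88 in BR200. ASNS, asparagine synthetase, which makes the amino acid that NARS1 loads, fell by 4.23 and 4.21. DDIT4 and SESN2 fell as well (log2 change -4.10 and -4.62 in BR100, -5.52 and -5.21 in BR200). CHAC1 and NUPR1, counted among the 26, passed the filter only through the wild type arrays (9.02 and 8.92, 7.82 and 7.27). Their resistant arrays read 2.46 to 2.91, near the lowest value on the arrays (2.23), so no size is given. ATF3, a stress-induced transcription factor named here after its values were seen, went apart: it read 9.42 and 9.28 in wild type, 5.61 and 4.63 in BR100, and 9.78 and 9.58 in BR200. It fell in BR100 (-4.23) and was not called in BR200 (0.33, adjusted p = 0.275). DDIT3, which encodes CHOP, fell (log2 change -3.65 and -3.63). XPOT, the export receptor that carries tRNAs out of the nucleus, read 13.62 and 13.83 in wild type and between 11.79 and 12.16 on the resistant arrays. Its log2 change was -1.65 and -1.76. Of 15 genes for eIF2, its kinases and partners, 9 fell in each variant (60%). In BR100 5 of the 15 rose and in BR200 4 (33.3% and 26.7%). Among all genes 31.8% fell and 36.7% rose in BR100, and 31.2% and 35.4% in BR200. The largest rise was that of EIF2B3, named after its values were seen (1.40 and 1.25). PPP1R15A (GADD34), which directs dephosphorylation of eIF2, fell by 3.76 and 2.28, and the eIF2 kinases EIF2AK2 and EIF2AK3 (PERK) fell by 2.10 and 1.33 in BR100.

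In the rest of the tRNA pathway, counts are given beside the share of all genes called higher and lower (36.7% and 31.8% in BR100, 35.4% and 31.2% in BR200). Of 19 genes of tRNA processing and export, 12 rose and 3 fell in BR100, and 9 rose and 2 fell in BR200 (63.2% and 15.8%, then 47.4% and 10.5%, medians 0.54 and 0.16). The RNase P subunits RPP30, RPP40 and POP4, which trim the 5′ ends of precursor tRNAs, rose by 1.84, 1.47 and 1.36 in BR100. Other RNase P subunits are named here after their values were seen. In BR100 POP1 and POP5 rose, RPP38 fell (log2 change -0.33), and POP7 and RPP14 were not called. Among 33 tRNA modification genes, 22 rose and 3 fell in BR100, and 19 rose and 4 fell in BR200 (66.7% and 9.09%, then 57.6% and 12.1%, medians 0.49 and 0.32). They included TYW3, which helps make wybutosine, at 1.90, ADAT1, a tRNA adenosine deaminase, at 1.53, and WDR4, partner of the methyltransferase METTL1, at 1.51. For RNA polymerase III, which transcribes tRNA genes, 9 of 19 genes rose and 2 fell in BR100, and 7 rose and 4 fell in BR200; the 36.8% higher in BR200 is near the share of all genes. Its subunit POLR3K rose by 2.19 and 1.95, while its subunit POLR3C fell (log2 change -0.64 and -0.88).

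Mitochondrial translation factors counted 10 higher and 3 lower of 16 in BR100, and 10 and 4 in BR200 (medians 0.47 in each). Those shares were 62.5% and 18.8%, then 62.5% and 25%. Of all genes 36.7% rose and 31.8% fell in BR100, and 35.4% and 31.2% in BR200. GATB, a subunit of the amidotransferase that completes the mitochondrial glutamine tRNA charged by EARS2, rose from 5.62 and 4.76 in wild type to between 6.81 and 7.28 on the resistant arrays. The release factor MTRF1 rose by 1.32 and the recycling factor MRRF by 0.96 in BR100, while GFM1, an elongation factor, fell by 0.96 and 1.03. Of 7 cytosolic elongation and termination factors, 3 rose and none fell in each variant. The 42.9% that rose is near the share of all genes. ABCE1, the ribosome recycling factor, rose by 1.24 and 0.79. Among 6 tested relatives of the synthetases, TARS3, a threonyl-tRNA synthetase paralogue, rose by 1.40 in BR100 and was at -0.05 in BR200 (adjusted p = 0.683). DTD2, which removes wrongly attached amino acids from tRNA, rose by 1.29 and 1.28, and PSTK, a kinase of the selenocysteine pathway, fell by 1.18 and 1.06.

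**Figure D5:**
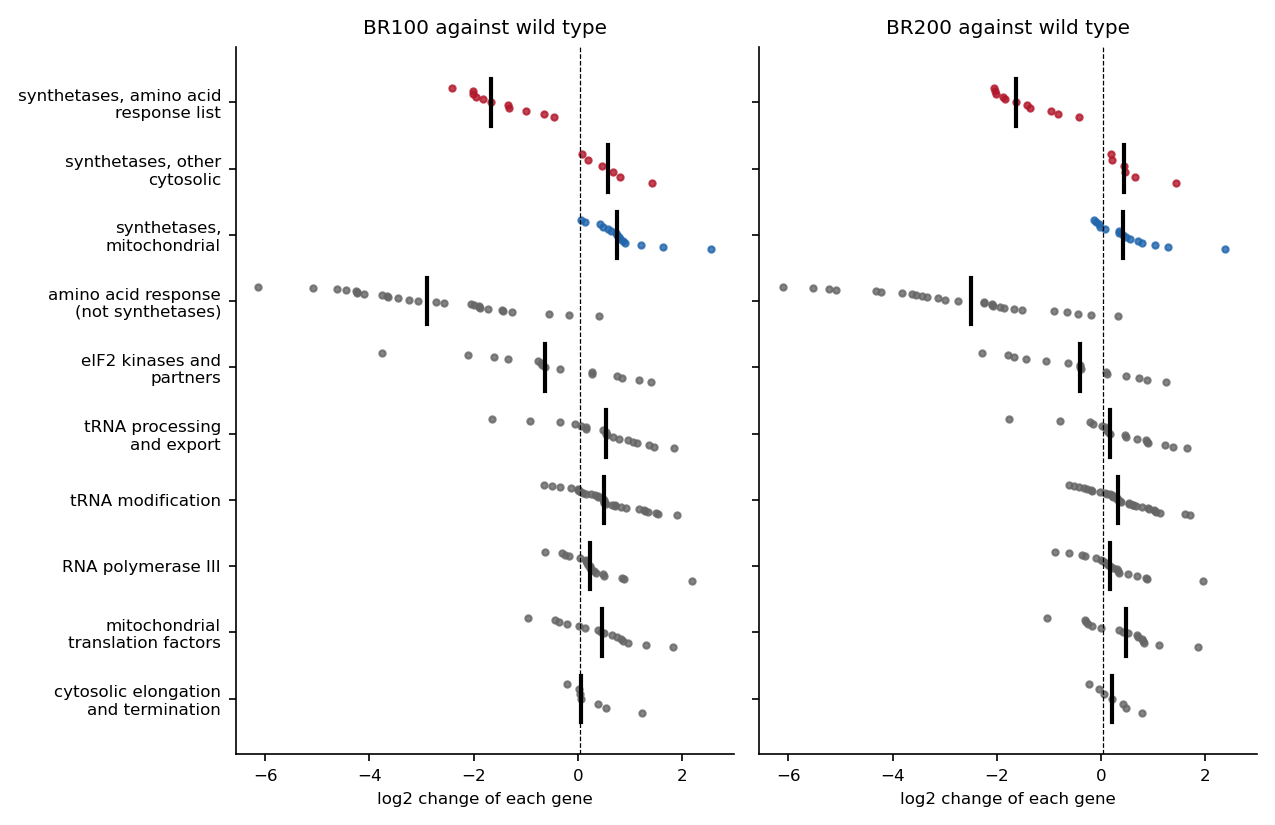
Log2 change from wild type (x axis) of each tested gene in 10 lists (y axis), with BR100 at the left and BR200 at the right. Black bars are list medians and the dashed line is the median of all 10370 genes; the synthetases of the amino acid response list have a median of -1.67 in BR100 and the mitochondrial ones of 0.75.

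WARS1 also belongs to the genes that interferon-gamma induces, and the values of that list stand beside it here. Of 10 tested, 8 fell and 1 rose in BR100, where 31.8% of all genes fell and 36.7% rose. In BR200 4 fell and 4 rose (40% each), not far from the 31.2% and 35.4% of all genes. Higher in BR200 than in BR100 were 7 of the 10, against 6.39% of all genes. GBP1 was higher in BR200 than in BR100 by 3.12 and PSMB9 by 2.30, where WARS1 was higher by 0.39. Against wild type GBP1 was lower in BR100 (-2.35) and higher in BR200 (0.77). PSMB9 was not called in BR100 (-0.20) and was higher in BR200 (2.10), while WARS1 fell in both variants. APOL6 fell (log2 change -2.82 in BR100 and -2.07 in BR200), as did CXCL11 (-2.19 and -1.96). Whether the interferon genes have a part in the level of WARS1 was not tested.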

How the data were processed

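The deposited values are on a log2 scale, and GCRMA is the method in the submitters' processing notes (version not given in the sources used here). GCRMA corrects background, normalizes between arrays and summarizes probes. No detection calls were used; precision is limited by having 2 arrays a variant and by dim signals.

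The array annotation named 1 gene for 41097 of 54675 probe sets, several for 1801 and none for 11777; symbols were checked through gene identifiers against RefSeq of GRCh38.p14 (0 of 41043 differed). Each of 19775 genes was represented by the brightest probe set (by mean over the arrays) that names no other gene, and 10370 genes reached log2 4 on at least 2 of 6 arrays. Probe sets naming several genes were left out of the gene tests. A single limma model (version 3.58.1, under R 4.3.3, with eBayes moderation) covered all genes, with terms for variant and labelling kit, and p-values were adjusted by Benjamini-Hochberg over all genes. The model had 2 residual degrees of freedom and 2.33 prior ones. Probe sets reaching the same floor were also tested singly. The pairing of arrays comes from the kit, which the labels give. Errors are limma's SE.

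The members, lists and tests were chosen with earlier results of these data known. Every tested member is named; from the other lists, up to 4 called genes with the largest change, and ATF4, ASNS, DDIT3, XPOT and EEF1E1, were taken. EEF1E1 had no probe set naming it alone, and a comparison of protein sequences was not run. Alternatives covered the kit block, probe set choice, filter, scaling, prior, arrays in the model and leaving out each array.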

Additional observations from a re-analysis of the deposited data

Results flagged for a closer look

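Levels differed between BR200 and BR100 for 4 synthetases by the direct test of the difference (limma, adjusted p under 0.05): MARS2 at -1.01, CARS2 at -0.66, NARS2 at -0.52 and WARS1 at 0.39 (BR200 minus BR100, log2). The same test was passed by other genes of the lists described. Among them TARS3 was at -1.45, PRORSD1P, a pseudogene related to prolyl-tRNA synthetase, at 1.02, DDIT4 at -1.42 and PPP1R15A at 1.48. The widest difference in the amino acid response list, noted after its values were seen, was that of ATF3 at 4.56 (adjusted p = 0.00525), which fell in BR100 and was not called in BR200. Of interferon-gamma-induced genes GBP1 was at 3.12, PSMB9 at 2.30 and APOL6 at 0.75. Of markers of other cell types TAGLN was at 1.32 and CD14 at 0.78. Each comparison had 2 arrays a variant, and both kits gave the direction of each of the 4 synthetases.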

How the results depend on the processing

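Members called higher and lower in BR100 were 17 and 11, and 12 and 10 with no replicate block (kit left out); in BR200 they were 14 and 11, and 10 and 10 without it. Medians moved when the probe sets of a gene were averaged, to -0.77 (cytosolic) and 0.59 (mitochondrial) in BR100 and to -0.82 (cytosolic) in BR200. Those averages take in probe sets that failed the filter, and 32 members were left, without CARS2. Without cross-hybridizing or shared probe sets the cytosolic medians were -1.57 and -1.55, over fewer genes. Leaving out 1 array gave mitochondrial medians of 0.70 to 0.82 in BR100. Against wild type, a called value turned sign for FARSB averaged in BR100 (-0.0085), where the average takes in a probe set that failed the filter. Uncalled values turned sign for AIMP1, at -0.54 averaged and -0.52 without shared probe sets in BR100, and at -0.39 and -0.43 in BR200 (also -0.01 in BR100 with arrays centred), and, without 1 array, for VARS2 in BR100 (-0.08) and for MARS2 (0.04), NARS2 (0.05), PARS2 (0.07) and VARS2 (0.10) in BR200. Between BR200 and BR100 the count called higher was 0 and that called lower 0 with no replicate block, with no filter, with the arrays of those variants alone, and without any 1 array, against 1 and 3; with an intensity trend 7 were lower. There, leaving out 1 array gave medians of -0.064 to 0.039 (cytosolic) and -0.34 to -0.17 (mitochondrial). Over all genes, 7102 (BR100) and 6901 (BR200) were called, and 4387 and 4100 with no replicate block; between BR200 and BR100, 1102 were called, and from 0 to 2254 under the alternatives. Centring or quantile scaling moved the median of all genes by at most 0.04. The causes were not tested.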
